A study of Mus musculus with 6 samples.

Results

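The clustered replication-dependent histone genes were followed in whole hearts of E13.5 mouse embryos. Members were all genes of the deposited table whose symbol starts with Hist1h, Hist2h, Hist3h or Hist4h. This gave 71 of the 46983 genes listed: 6 for H1, 20 for H2A, 20 for H2B, 12 for H3 and 13 for H4. One symbol, Hist2h2bb, stands on 2 rows, and 3 members are pseudogenes in the annotation. The hearts came from 3 embryos labelled TnnT2Cre;Wt1flox (mutant replicates 1, 5 and 10) and 3 labelled wild type (replicates 2, 3 and 5), all of the strain C57BL/6 x DBA/2. The methods describe the wild type embryos as carrying floxed Wt1 alleles and no Cre, so the floxed allele is shared by both groups and the presence of Cre is not. The Tnnt2 promoter drives Cre in the myocardium and, in the study's own account, also in part of the epicardial cells, while each library holds every cell type of 1 heart.

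Replication-dependent histone genes supply the core histones H2A, H2B, H3 and H4 and the linker histone H1 that package newly copied DNA, and most of their mRNA is made in S phase. They lie in clusters, have a single exon as a rule, and their mRNAs end in a conserved stem-loop in place of a poly(A) tail. The stem-loop binding protein Slbp holds this element and directs the cut at the 3′ end, together with U7 snRNA. Some members also give transcripts that run past the stem-loop and carry a poly(A) tail, in particular in cells that have left the cell cycle. A library made by selection on poly(A) tails collects mainly the tailed form. The sources used here name a TruSeq RNA kit and do not state how ribosomal RNA was removed.

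The stem-loop was searched in the GENCODE M21 transcripts (GRCm38) of the 69 members whose identifier is found there, and 42 held one. There were 6 different stem-loops, and 24 members had the commonest of them. The sequences below show each form once, on the mRNA strand, since this element is what sets the family apart from other mRNAs. Capitals mark the stem-loop.
Hist1h1c: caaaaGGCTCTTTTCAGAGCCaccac
Hist1h3e: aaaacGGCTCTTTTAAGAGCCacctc
Hist2h2ac: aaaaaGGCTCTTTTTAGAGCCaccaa
Hist1h4d: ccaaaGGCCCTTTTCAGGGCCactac
Hist1h4i: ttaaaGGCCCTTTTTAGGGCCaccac
Hist1h4j: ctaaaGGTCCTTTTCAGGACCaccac
The form of Hist1h4d was held by 7 members, all of them H4 genes. The form of Hist1h3e was held by 6 members, among them the H2B gene Hist1h2bk and the H3 gene Hist1h3c. No match in the other 27 models says only that these letters are not in the annotated sequence.

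The family took a small share of the libraries, between 0.00742% and 0.0102% of all counts in a heart. Summed over the 71 members, the wild type hearts (replicates 2, 3 and 5) had 4117, 4481 and 4535 counts and the mutant hearts (replicates 1, 5 and 10) 4880, 4535 and 4783. Of the members, 62 had at least 1 count in some heart and 9 were listed at 0 in all 6. Between 27 and 33 members reached 10 counts in a heart. Of the 71, 60 stayed under 50 counts in every heart, while total counts per heart were between 44244665 and 56373393. Wild type replicate 5 was the shallowest library, and its deviations from the mean of the hearts fell with gene length (Spearman's rho across genes −0.56, against −0.06 to 0.46 in the other hearts).

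Of the libraries' other facts, the targeted gene Wt1 had 2251, 1891 and 879 counts in the wild type hearts and 921, 1746 and 1796 in the mutant hearts, and overlapped between the groups. The tissue label was borne out by the cardiomyocyte markers, which summed to between 20211 and 25608 CPM (counts relative to the TMM-normalized library size) in each heart. Erythroid markers were at 39277 CPM in wild type replicate 5 and 42671 CPM in mutant replicate 10, against 12470 to 16938 CPM in the other hearts. Endothelial markers (647.3 to 1124 CPM) and epicardial and fibroblast markers (798.4 to 1864 CPM) were both lowest in wild type replicate 5. Hepatocyte markers stood at 780.7 CPM in wild type replicate 3 and at 20.6 CPM or less in the others. Macrophage markers were between 69.7 and 84.0 CPM in wild type and between 110.5 and 122.5 CPM in mutant hearts. Of the 7 macrophage markers, 6 had an unadjusted p under 0.05 in edgeR, all 6 higher in mutant hearts, beside 3.14% of all genes tested. Those with the smallest p were C1qa and C1qb, subunits of complement C1q, with log2 fold changes of 0.98 and 0.76 (standard errors 0.18 and 0.16). In the epicardial and fibroblast list they were Tcf21 (−1.10, standard error 0.15) and Col1a1 (0.95, standard error 0.29), in the endothelial list Emcn (0.25, standard error 0.10) and Npr3 (0.33, standard error 0.16), and in the cardiomyocyte list Myl7 (−0.48, standard error 0.20) and Myl2 (0.21, standard error 0.14). In the erythroid list they were Hba-a2 (1.94, standard error 1.003) and Epb42 (−0.34, standard error 0.27), while Alb and Serpina1b of the hepatocyte list had 17429 and 1409 counts in wild type replicate 3 and at most 289 and 38 in any other heart. Over the whole lists, 3 of 11 erythroid, 5 of 8 cardiomyocyte and 6 of 6 endothelial markers tested were higher in mutant hearts. For epicardial and fibroblast markers it was 4 of 8 and for hepatocyte markers 0 of 6, beside 49.8% of all genes tested. The 2 genes named thus do not stand for their lists. The part of these cells in the histone values was not tested.

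Few members made up the family's signal in these hearts. Levels of different genes were compared as FPKM, which divides the counts by gene length and library size, as deposited. The mean over the 6 hearts was above 1 FPKM for 12 members. The highest was Hist1h1c, the linker histone H1.2, which held between 35.8% and 43.3% of the family's counts in each heart. The 6 members with the highest mean CPM (Hist1h1c, Hist2h2be, Hist1h2bc, Hist1h4i, Hist3h2ba and Hist3h2a) together held between 82.5% and 87.2%.

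**Figure D1:**
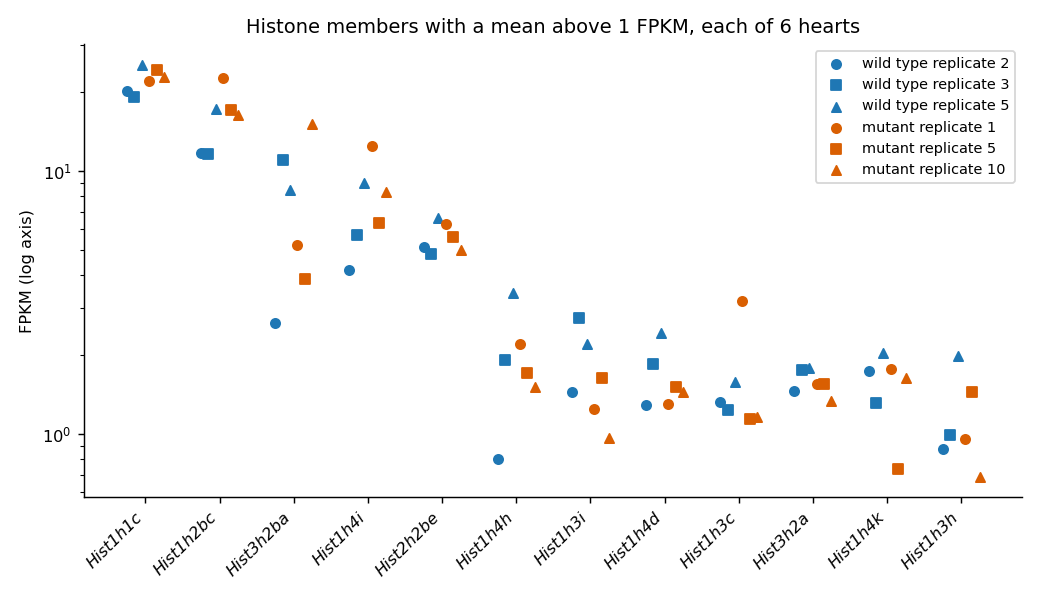
FPKM (log axis) of the 12 members with a mean above 1 FPKM, in each of 6 hearts (blue, wild type; orange, mutant; marker shape, replicate). Hist1h1c is the highest member on average at 22.2 FPKM, while Hist3h2ba and Hist1h4h are the most scattered within the wild type hearts.

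Among the linker histones, Hist1h1c (ENSMUSG00000036181, chr13:23738808-23740367, plus strand, GRCm38) had 1735, 1678 and 1750 counts in the wild type and 1747, 1963 and 1879 in the mutant hearts. That was 33.2 ± 5.70 CPM against 36.1 ± 2.18 CPM (SD, n = 3 each), and the groups overlapped. It made up 97.2% of the H1 counts. The next H1 members, Hist1h1d and Hist1h1e, had means of 0.59 and 0.30 FPKM. The testis type Hist1h1t, taken as a check, had between 0 and 6 counts in a heart.

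H2B gave 3 of the 6 members with the highest mean CPM. Hist2h2be (chr3:96221119-96223738) had 748, 716 and 766 counts in wild type and 840, 768 and 694 in mutant hearts, and Hist1h2bc (chr13:23684199-23692908) had 479, 481 and 558 against 845, 656 and 636. Per length, Hist1h2bc was the higher of the pair, at a mean of 16.05 FPKM against 5.58 FPKM. Together with Hist3h2ba, these members held 90.1% of the H2B counts. The testis type Hist1h2ba had 1 count in 1 heart.

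Hist3h2ba (chr11:58948920-58949533), an H2B gene of the small Hist3 cluster, varied more from heart to heart than any other of the 6 leading members. The wild type hearts had 1.598, 6.59 and 5.23 CPM (replicates 2, 3 and 5), and the mutant hearts 3.16, 2.37 and 9.76 CPM (replicates 1, 5 and 10). The highest heart was thus 6.11 times the lowest, within both groups by about the same factor (4.12 and 4.12). Of its neighbours, Rnf187 had 193.5 to 229.2 CPM and Trim11 35.3 to 51.4 CPM over the hearts, while Trim17, at a much lower level, had 0.153 to 0.462 CPM. The source of the spread of Hist3h2ba was not tested. Hist3h2a, Hist1h1c and Hist2h2be varied least of the leading members, with a highest heart of 1.27, 1.36 and 1.40 times the lowest.

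H2A, H3 and H4 had low levels with 1 gene above the rest in H2A and H4. Hist3h2a, which lies in the same cluster as Hist3h2ba, held 79.8% of the H2A counts. It had 173, 211 and 169 counts in wild type and 170, 174 and 152 in mutant hearts. Of its exon bases, 32.99% are shared with other counted genes, Trim17 among them, so its level is uncertain. Hist1h4i held 58.9% of the H4 counts. No H3 member stood out in this way, with Hist1h3c, Hist1h3e and Hist1h3i at 18.5%, 17.1% and 16.6% of the H3 counts.

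Replication-independent histone variants, whose mRNAs as a rule carry a poly(A) tail, spanned a wide range of levels. Of the 15 listed, 8 had a higher mean FPKM than the highest clustered gene, Hist1h1c (22.2 FPKM), and 7 a lower one. Among the 8, the mean over 6 hearts was 821 for H2afz (H2A.Z), 302 for H3f3b and 156 for H3f3a (H3.3), and 190 for H1f0 (the linker histone H1.0). Among the 7 were H2afy2 (macroH2A2) at 21.9, H1fx at 12.7 and H2afj at 8.47, and H1fnt, a testis type, was listed at 0. All histone mRNA of these hearts was not measured, but only the transcripts that the libraries could hold.

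The annotated 3′ end went with the level to a limited degree. Among the 21 members whose model runs more than 100 bases past the stem-loop, the median of the mean FPKM was 0.59, and 5 were above 1 FPKM. Among the 21 whose model ends within 100 bases of it, the median was 0.29 and 2 were above 1 FPKM. Over the 42 members with a stem-loop, mean FPKM and bases past the stem-loop had a Spearman's rho of 0.26. It is given as a description, since these genes share libraries and lengths. For some members the gene length behind the FPKM was far shorter than the model, as 476 against 2482 bases for Hist1h2ac. Others were Hist1h1e (748 against 1930) and Hist1h4d (393 against 1138). Bases past their stem-loop may thus not have been counted, which limits the medians and the rho. The leading members Hist1h1c, Hist1h4i, Hist3h2ba and Hist3h2a had models running 840, 330, 169 and 1643 bases past the stem-loop, each with a poly(A) signal (AATAAA or ATTAAA) in the last 50 bases. Hist2h2be had such a signal without a stem-loop in its model, and Hist1h2bc had neither. Hist1h1d, at a mean of 0.59 FPKM, has a model that runs 4884 bases past. The gene length behind its FPKM was 744 bases against 7425 in the model, so that stretch may not have been counted.

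The members listed at 0 were Hist1h2aa, Hist1h2ab, Hist1h4b, Hist2h2aa1, Hist2h2aa2, Hist2h2ab, Hist2h2bb (1 of its rows), Hist2h3b and Hist2h3c1. For 5 of these 9, no stretch of 150 bases in the longest transcript is unique among annotated transcripts, and these 5 are the only such members. They are Hist2h2aa1, Hist2h2aa2, Hist2h3b, Hist2h3c1 and the row of Hist2h2bb, all in the Hist2 cluster. A stretch shared with a gene annotated at the same place was taken as not unique, and 100% of their exon bases lie in such genes. For Hist2h2ab and Hist1h4b, also at 0, it was 68.2% and 56.2%. Only uniquely mapped reads were counted, and the handling of reads lying in more than 1 gene is not stated. The 0 of these 5 thus says nothing about their expression. Hist1h2aa, a testis type that is wholly unique, was also at 0, and 3 counts, the limit that a count of 0 allows, were worth between 0.0522 and 0.0682 CPM in a heart, for counting error only. In all, 25 of the 69 members had under 50% of unique stretches, so that their counts are uncertain. In addition, 19 of the 20 H2A members overlap a gene of the opposite strand that the annotation types as a microRNA, against 0 of the 51 other members. The strand setting of the counting is not stated, and whether reads on those bases were left out was not tested. H2A had the lowest median of the 5 types (0.0355 FPKM).

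H2A and H2B genes often lie head to head with a common promoter, and 13 such pairs were found with at most 400 bases between them. In 12 of the 13 the H2B gene had the higher mean FPKM, and in the other the H2B member is the pseudogene Hist3h2bb-ps. Some pairs rest on few reads over the 6 hearts, as 1 count against 0 in Hist1h2ba and Hist1h2aa. In Hist1h2bl and Hist1h2ai it was 32 against 27. The overlap just described falls on the H2A side, and its part was not tested. The widest differences were in Hist1h2ac and Hist1h2bc, with 26 and 3655 counts over the 6 hearts and 250 bases between them, and in Hist2h2ac and Hist2h2be, with 14 and 4532 counts and 238 bases between. Hist1h2ac had at most 9 counts in a heart, in mutant replicate 10, and Hist2h2ac had 8 in wild type replicate 3, 6 in mutant replicate 1 and 0 in the others. The promoters of these H2A members in RefSeq (GRCm38.p6, 250 bases before to 50 after the start) cover the whole stretch between each pair. They are printed on the strand of the H2A gene, for Hist1h2ac chr13:23683910-23684209 and for Hist2h2ac chr3:96220831-96221130, both minus strand, with the motif CCAAT, the TATA box TATAAA and the octamer ATTTGCAT in capitals on either strand.
Hist1h2ac: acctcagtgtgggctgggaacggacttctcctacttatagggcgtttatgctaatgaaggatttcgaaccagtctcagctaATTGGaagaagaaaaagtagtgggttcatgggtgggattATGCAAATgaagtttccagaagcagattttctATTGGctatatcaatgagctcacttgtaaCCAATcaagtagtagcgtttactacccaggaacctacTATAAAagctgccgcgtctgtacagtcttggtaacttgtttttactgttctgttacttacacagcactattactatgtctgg
Hist2h2ac: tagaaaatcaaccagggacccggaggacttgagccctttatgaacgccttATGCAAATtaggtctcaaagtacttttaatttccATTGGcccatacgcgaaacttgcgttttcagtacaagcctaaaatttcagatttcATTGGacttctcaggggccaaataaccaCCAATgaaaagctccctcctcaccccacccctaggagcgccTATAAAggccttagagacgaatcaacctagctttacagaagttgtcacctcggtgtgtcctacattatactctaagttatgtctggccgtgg
Both hold CCAAT at 3 places and TATAAA and the octamer at 1 place each. These motifs overlap at no base. Promoters were matched for 60 members, 1 of them with 2, which gave 61 promoters. CCAAT was in 85.2% of the 61 and in 37.4% of all 32851 RefSeq promoters of the same length. It was in all promoters of H1, H2A, H2B and H3 members, but in 3 of 12 of H4. TATAAA was in 57.4% against 13.6%, and ATTTGCAT in 21.3% against 1.74%. The latter was held by 7 of 17 H2A and 6 of 16 H2B promoters, and by none of H1, H3 or H4. These are matches of letters, counted on both strands, and not binding sites. Some promoters of head-to-head pairs overlap, so that 1 site counts for both genes, as with the octamer of Hist1h2ae and Hist1h2bg. The 61 promoters are therefore not all separate stretches.

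**Figure D2:**
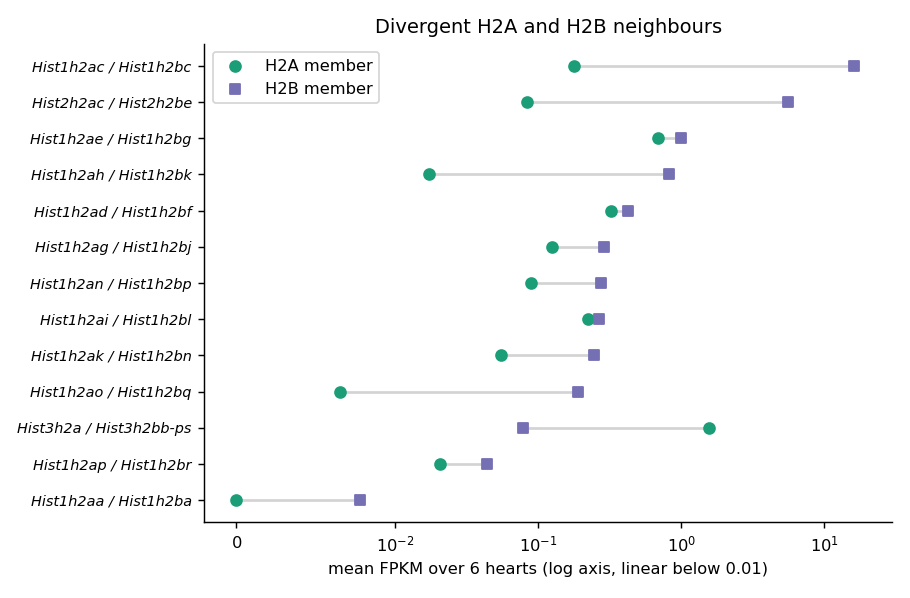
Mean FPKM over 6 hearts (log axis, linear below 0.01) of the H2A member (circle) and the H2B member (square) of each of 13 head-to-head pairs, joined by a line. The H2B member is higher in 12 pairs, most widely in Hist1h2ac and Hist1h2bc, and in the other pair it is the pseudogene Hist3h2bb-ps.

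Mutant and wild type hearts were then compared gene by gene by the quasi-likelihood test of edgeR over the 17473 genes that passed a filter on low counts, with p adjusted after Benjamini-Hochberg. Of the 71 members, 33 passed the filter (4 of H1, 2 of H2A, 10 of H2B, 9 of H3 and 8 of H4) and 38 did not, none of which had more than 46 counts over the 6 hearts. None of the 33 had an adjusted p under 0.05, and neither did any gene of the table (0% of 17473). DESeq2 called 0 members and 0.69% of 19282 genes. At an unadjusted p under 0.05, edgeR had 3 members, which is 9.09% of those tested against 5.73% of all genes. Of the 3, 1 was higher and 2 were lower in mutant hearts, beside 3.14% and 2.59% of all genes. The 2 groups did not overlap in CPM for 6 members, 18.2% against 11.2% of all genes. Of these, 1 was higher and 5 were lower in mutant hearts, beside 6.61% and 4.59% of all genes.

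The directions of the members were mixed. Positive log2 fold changes (higher in mutant hearts) were found for 13 of the 33 and negative ones for 20, with a median of −0.17 beside −0.001 over all genes tested. Without wild type replicate 5 the members' median turned to 0.17. By type the median was 0.06 for H1, −0.63 for H2A (2 members), −0.05 for H2B, −0.29 for H3 and −0.24 for H4. Among the 6 leading members 5 had positive values, and among the other 27 tested 8 had.

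**Figure D3:**
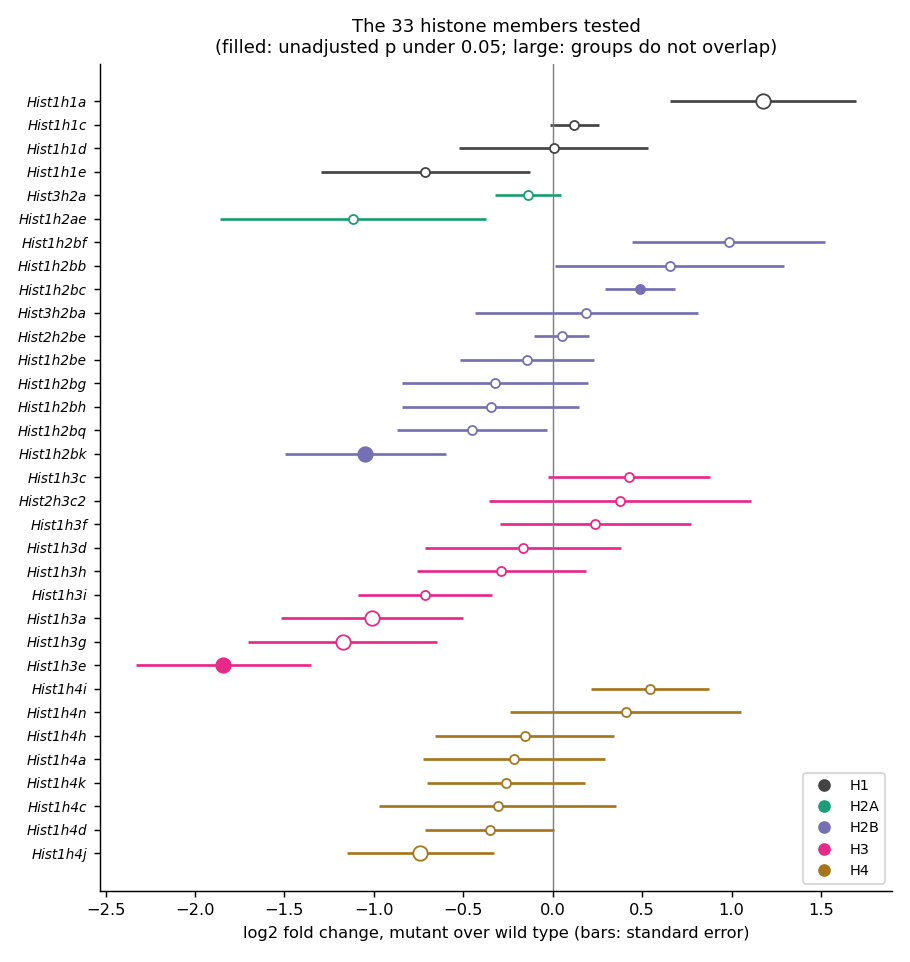
Log2 fold change, mutant over wild type, with its standard error (bars) for the 33 members tested, coloured by histone type. Filled points had an unadjusted p under 0.05 (Hist1h3e, Hist1h2bk and Hist1h2bc), large points are the 6 members whose groups do not overlap, and none passed the adjusted threshold.

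Hist1h3e (ENSMUSG00000069273, chr13:23561534-23562369, minus strand), an H3 gene of the main cluster, had the largest difference of the members tested. The counts were 47, 78 and 52 for wild type replicates 2, 3 and 5, and 7, 15 and 26 for mutant replicates 1, 5 and 10. Every mutant heart was below every wild type heart, at 0.312 ± 0.192 CPM against 1.12 ± 0.266 CPM (SD, n = 3 each). In edgeR this was a log2 fold change of −1.84 with a standard error of 0.49, an unadjusted p = 0.0054 and an adjusted p = 0.547. The unadjusted p was under 0.05 in each of 13 other settings, and the adjusted p in none (lowest 0.066, from DESeq2). Its stretches of 150 bases are 73.2% unique.

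Hist1h2bk, an H2B gene, was also lower in mutant hearts on few reads, with 22, 23 and 35 counts in wild type and 15, 10 and 14 in mutant hearts. Its groups did not overlap either, yet wild type replicate 5 was well above the other wild type hearts in CPM (0.80 against 0.39 and 0.40). In edgeR the log2 fold change was −1.05 with a standard error of 0.45, an unadjusted p = 0.048 and an adjusted p = 0.866, and the unadjusted p was under 0.05 in 4 of the 13 other settings. Of its stretches, 39.1% are unique.

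Hist1h2bc was the member with a higher level in mutant hearts at an unadjusted p under 0.05. Wild type replicates 2, 3 and 5 stood at 8.51, 8.36 and 12.7 CPM, and mutant replicates 1, 5 and 10 at 16.3, 12.5 and 12.6 CPM. Wild type replicate 5 lay within the range of the mutant hearts, and the groups overlapped. In edgeR its log2 fold change was 0.49 with a standard error of 0.20, an unadjusted p = 0.037 and an adjusted p = 0.840, and 10 of the 13 other settings kept the unadjusted p under 0.05.

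The other members without overlap in CPM had low counts, some of which overlap as raw counts. Hist1h1a, a linker histone, had 7, 3 and 5 counts in wild type and 11, 12 and 11 in mutant hearts (log2 fold change 1.18, standard error 0.52). The H3 genes Hist1h3g and Hist1h3a had 28, 26 and 12 against 14, 10 and 4 counts, and 14, 11 and 12 against 5, 9 and 4 counts. Hist1h3g was thereby at 0.497, 0.452 and 0.273 CPM against 0.269, 0.191 and 0.0795 CPM. Hist1h4j had 22, 39 and 17 counts in wild type and 18, 14 and 13 in mutant hearts, or 0.391, 0.678 and 0.386 CPM against 0.346, 0.267 and 0.258 CPM. In Hist1h3g and Hist1h4j the gap between the groups in CPM was thus narrow. Their adjusted p in edgeR were between 0.880 and 0.939, so that no difference was called.

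Hist1h2ae and Hist1h4i overlapped between the groups and varied widely within them. Hist1h2ae, an H2A gene, was at 0.764, 0.209 and 0.341 CPM in the wild type and at 0.0385, 0.229 and 0.338 CPM in the mutant hearts. Wild type replicate 2 and mutant replicate 1 lay at the ends, and its log2 fold change of −1.12 (standard error 0.74) varied between −1.69 and −0.43 over the 13 other settings. Hist1h4i, the leading H4 gene, was at 3.02, 4.05 and 6.54 CPM in the wild type and 8.87, 4.597 and 6.36 CPM in the mutant hearts, with a log2 fold change of 0.55 (standard error 0.33).

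The remaining members named for their level overlapped between the groups. Among H4 genes, Hist1h4h, Hist1h4d and Hist1h4k had log2 fold changes of −0.16, −0.35 and −0.26 with standard errors of 0.50, 0.36 and 0.44. Among H3 genes, Hist1h3i, Hist1h3c and Hist1h3h had −0.71, 0.43 and −0.29 with standard errors of 0.38, 0.45 and 0.47. In Hist1h3c, mutant replicate 1 (80 counts) stood above the other 5 hearts (29 to 36 counts), and without it the log2 fold change was −0.21. Of Hist1h3h, 9.54% of the 150-base stretches are found in no other gene, so its counts are uncertain. Hist1h3d had 30, 11 and 41 counts in wild type and 21, 26 and 28 in mutant hearts (log2 fold change −0.17, standard error 0.55). Of the H2B gene Hist1h2bg there were 18, 31 and 32 counts in wild type and 36, 12 and 17 in mutant hearts. The H2A genes Hist1h2ad and Hist1h2ai, which did not pass the filter, had 2 to 15 and 1 to 9 counts in a heart.

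**Figure D4:**
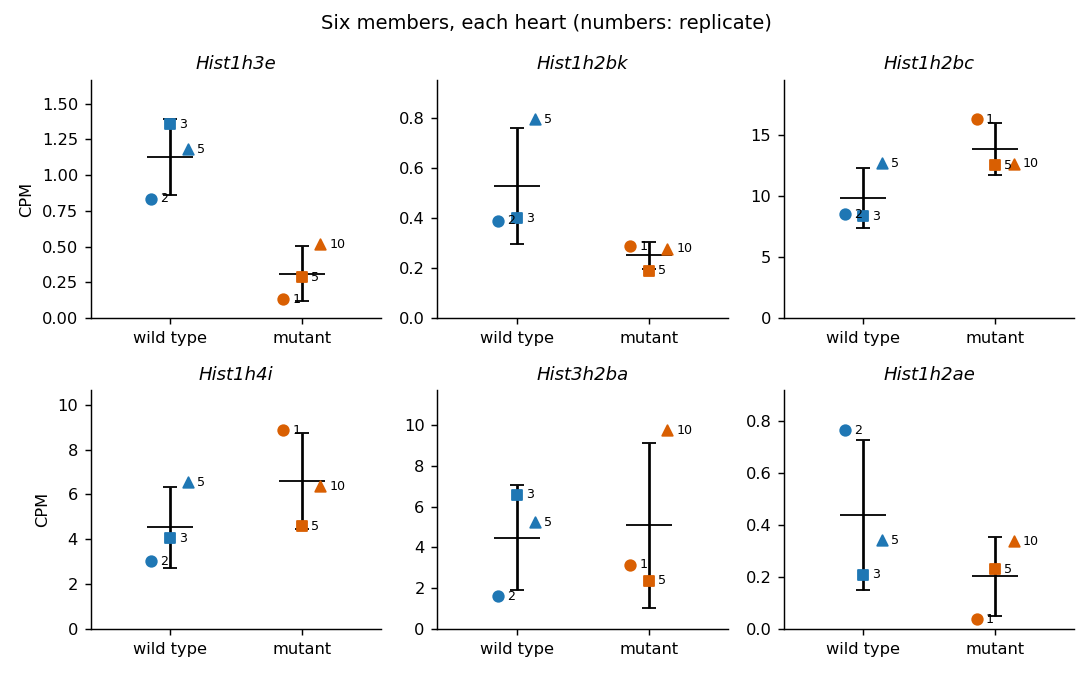
CPM of Hist1h3e, Hist1h2bk, Hist1h2bc, Hist1h4i, Hist3h2ba and Hist1h2ae in each heart (number, replicate), with the mean (line) and SD (bars) of each group of 3. Only Hist1h3e and Hist1h2bk show groups that do not overlap among these 6.

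Summed over all 71 members, whether or not they passed the filter, the family stood at 73.1, 77.9 and 103.0 CPM for wild type replicates 2, 3 and 5, and at 93.9, 86.5 and 95.04 CPM for mutant replicates 1, 5 and 10. The mutant hearts lay within the range of the wild type hearts. The log2 ratio of the means was 0.12, and 0.28 without wild type replicate 5. By type, the sums of H1, H2B and H4 overlapped between the groups. The sum of H3 was 4.86 ± 0.796 CPM for wild type and 3.602 ± 0.281 CPM for mutant hearts (SD, n = 3 each), and each mutant heart (3.66, 3.85 and 3.30 CPM) was below each wild type heart (4.07, 4.87 and 5.66 CPM). Without Hist1h3e the H3 sums overlapped, at 3.23 to 4.48 CPM and 2.78 to 3.57 CPM. The sum of H2A was 4.57 ± 0.332 CPM for wild type and 3.87 ± 0.171 CPM for mutant hearts (SD, n = 3 each), without overlap. Without Hist3h2a the other 19 H2A members summed to 0.887 to 1.17 CPM and 0.404 to 0.894 CPM, which overlapped at the edge. These sums are descriptions and were not tested.

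**Figure D5:**
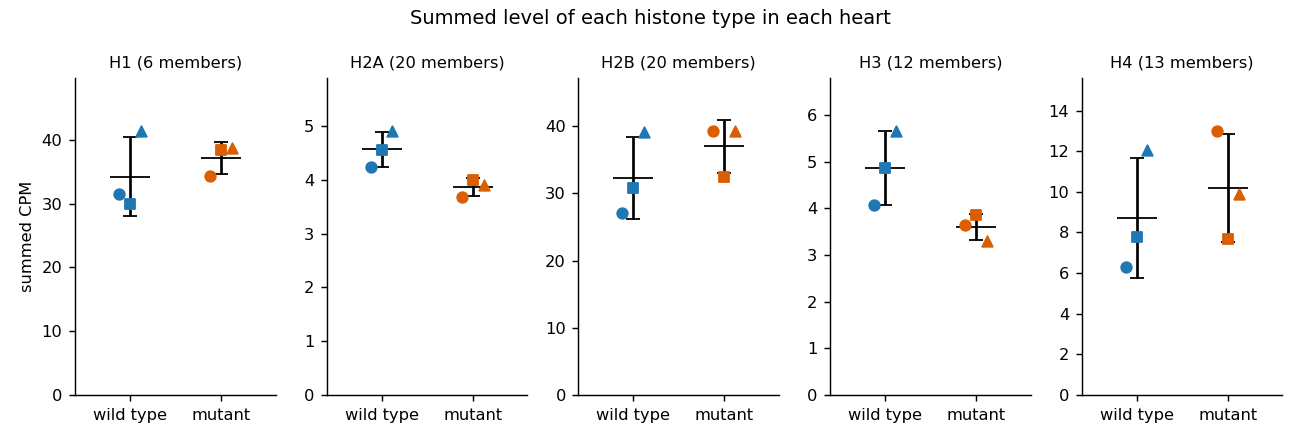
Summed CPM of the members of each histone type in each heart, from 0, with the mean (line) and SD (bars) of each group of 3 hearts. H2A and H3 are lower in every mutant heart than in every wild type heart, while H1, H2B and H4 overlap.

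The same fit was read for the genes that act with the family. Over all genes tested, 5.73% had an unadjusted p under 0.05 in edgeR and the median log2 fold change was −0.001. Of 15 replication-independent histone variants, 13 were tested and 0 had an unadjusted p under 0.05, with a median log2 fold change of −0.16. Of 18 factors for histone mRNA transcription, 3′ processing and decay, all were tested and 0 had an unadjusted p under 0.05, with a median of 0.03. Slbp itself was at 57.5 ± 3.37 CPM for wild type and 56.6 ± 4.56 CPM for mutant hearts (SD, n = 3 each). In both lists the smallest p stayed far from the threshold once adjusted, at 0.906 (H1fx) and 0.975 (Cstf2t) in edgeR. The genes next to them in p were H2afj (log2 fold change −0.31, standard error 0.15) and Srrt (−0.14, standard error 0.11). The 13 histone chaperones with the acetyltransferase of new histones likewise had 0 genes at an unadjusted p under 0.05, with a median of −0.03. The smallest p were those of the chaperones Chaf1a (log2 fold change −0.15, standard error 0.15) and Asf1b (0.09, standard error 0.09).

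Genes of S phase and mitosis were read next. Of 30 DNA replication genes, 26 had a negative and 4 a positive log2 fold change, with a median of −0.07 and 0 at an unadjusted p under 0.05. Over all genes tested, 49.8% had a positive value, the median was −0.001 and 5.73% had an unadjusted p under 0.05 in edgeR. The lists were not tested as sets. The smallest p was that of Fen1, the flap endonuclease of the lagging strand, with 76, 24 and 28 counts in wild type and 11, 23 and 23 in mutant hearts and a log2 fold change of −1.12 (standard error 0.53). Wild type replicate 2 stood apart, and the groups overlapped. The counted level of Fen1 was low, at a mean of 0.26 FPKM over the 6 hearts against 119.7 for Mcm2 and 175.0 for Rrm2. Overlap with other genes was looked up for the histone members only, so the level of Fen1 is uncertain. Pcna, the sliding clamp of the replication fork, was at 205.3 ± 10.8 CPM for wild type and 184.2 ± 14.2 CPM for mutant hearts (SD, n = 3 each). Of 20 mitosis genes, 14 were negative and 6 positive, with a median of −0.03 and 0 at an unadjusted p under 0.05. Its smallest p belonged to Cdc20, the activator of the anaphase-promoting complex (log2 fold change −0.16, standard error 0.11), and Ccnb2, cyclin B2 (−0.13, standard error 0.11). In summed CPM, the DNA replication list was lowest in wild type replicate 5 (2193 CPM), where the histone sum was highest (103.0 CPM). The mitosis (2188 CPM), mRNA factor (911 CPM) and chaperone (1200 CPM) lists were also lowest there, while the histone variants were highest (2609 CPM). Deviations in this heart fell with gene length (Spearman's rho −0.56), and the part of this trend in the sums was not tested.

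RNAs that carry no poly(A) tail were read beside the family, whose S phase mRNAs end in the stem-loop instead of a tail. The annotated models of 17 members end with a poly(A) signal, and these held most of the family's counts, 3163 of 4117 in wild type replicate 2. Of 16 listed, 5 were tested. Their sums were 8.27, 6.28 and 17.1 CPM for wild type replicates 2, 3 and 5, and 6.21, 3.76 and 4.61 CPM for mutant replicates 1, 5 and 10. Wild type replicate 5, whose deviations fell with gene length (Spearman's rho −0.56), stood highest both here and in the histone sum. Rn7sk, the RNA that holds the elongation factor P-TEFb inactive, had 99, 83 and 89 counts in wild type and 30, 19 and 25 in mutant hearts, without overlap. In edgeR it differed by −1.86 on the log2 scale with a standard error of 0.31 and an adjusted p = 0.181, while DESeq2 gave an adjusted p = 2.5e-04. Rpph1, the RNA of ribonuclease P, had a log2 fold change of −1.42 (standard error 0.52), with 406 counts in wild type replicate 5 against 71 to 172 in the other hearts. Without wild type replicate 5 its log2 fold change was −0.56. Wild type replicate 2 was second in the untailed sum and lowest in the histone sum. Whether the amount of untailed RNA plays a part in the histone values was not tested.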

How the data were processed

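RNA from 6 whole hearts was sequenced, 1 heart per library. Per the methods, reads were trimmed and aligned with STAR (mm10), and the authors deposited counts of uniquely mapped reads per gene (featureCounts, GENCODE M19, GRCm38.p6), without normalization. The submitters' processing notes name HTSeq and DESeq2 instead of featureCounts. The deposited FPKM values are these counts over a gene length and the total count. The strand setting is not given in the sources used here. Columns with the authors' group means were not used. The members and lists were chosen with earlier results of these data known.

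Counts were compared with edgeR 4.0.16 in R 4.3.3 (quasi-likelihood, TMM, filterByExpr defaults, minimum count 10 and minimum total 15, two-sided, Benjamini-Hochberg over all genes). The alternatives were DESeq2 1.42.0, other size factors, no filter, limma 3.58.1 on log2(FPKM + 1) and log2(FPKM + 0.1), a loess correction for gene length (span 0.5) and leaving out each heart. Scripts were tested on simulated data. Named are the 4 members of each type with the highest mean FPKM, those with an unadjusted p under 0.05, the 5 with the largest log2 fold change, 3 testis types and, per list, the 2 genes with the smallest p. The choice of other members to name was made with their values in view. Gene positions and transcripts are from GENCODE M21 (69 of 71 members matched by identifier), and promoters from RefSeq. Fewer cells of a type and less RNA per cell cannot be told apart in whole hearts.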

Additional observations from a re-analysis of the deposited data

How the results depend on the processing

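No member had an adjusted p under 0.05 in any of the 13 other settings. The number of genes called over the whole table was 0, but 133 with DESeq2, 34 without the filter, 13 with the length correction, 54 with the length correction and without wild type replicate 5 (chosen after seeing the data), and 0 to 44 with each heart left out, the 44 without wild type replicate 5. Members at an unadjusted p under 0.05 numbered 3, but 7 in both limma fits, 5 with the length correction and without wild type replicate 5, and 1 to 5 with each heart left out, the 1 without wild type replicate 3 and the 5 without wild type replicate 5. The members' median log2 fold change of −0.17 was 0.16 with the length correction and without wild type replicate 5, and between −0.26 and 0.17 with each heart left out. It was positive only where wild type replicate 5 was left out. The log2 ratio of the summed counts was 0.12, and leaving out single hearts gave 0.021 to 0.28.

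Some named members without a low p turned in sign. Hist1h3d and Hist1h4h were positive on log2(FPKM + 0.1) (0.012 and 0.019) and with the length correction (0.0034 and 0.036), and Hist1h3d, Hist1h3h and Hist1h4h (0.38, 0.16 and 0.40) with the length correction and without wild type replicate 5. With each heart left out, the log2 fold changes lay between −0.33 and 0.64 for Hist1h1d, −0.21 and 0.67 for Hist1h3c, −0.58 and 0.42 for Hist1h3d, −0.61 and 0.17 for Hist1h3h, −0.54 and 0.44 for Hist1h4h, −0.44 and 0.035 for Hist1h4k, −0.041 and 0.21 for Hist2h2be, and −0.69 and 0.59 for Hist3h2ba. The cause was not tested. The labels give no pairing of the hearts, so no paired analysis was made. Low counts limit the comparison for most members, since 60 of the 71 had under 50 counts in every heart.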
